A study of Homo sapiens with 10 samples.

Results

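PCDH9 and MOB3B are a pair of human genes chosen by adjacent 100-kb windows in which K562 γH2AX 1 h after irradiation lay furthest above untreated H2AX, among windows that an earlier fit of all 10 libraries had called. In hg19, PCDH9 lies on chromosome 13 from 66876966 to 67804468 and MOB3B on chromosome 9 from 27325207 to 27529850. Both are on the minus strand, so transcription starts at the higher coordinate. The gene bodies touched 11 and 3 of the 28063 windows of the genome that were kept, and each was examined together with 500 kb on either side. The values that chose them are the levels of K562 γH2AX at 1 h and of K562 H2AX, so every comparison that uses either group is described below for these genes without a p-value.

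When a DNA double-strand break forms, kinases of the damage response phosphorylate the tail of the histone variant H2AX in the chromatin around it, often over long stretches on both sides, and the phosphorylated form is called γH2AX. H3K27me3 is the trimethylation that Polycomb complexes place on histone H3 over silent domains. PCDH9 encodes a delta-type protocadherin, a cell adhesion protein of neurons, from one of the long genes of the genome. MOB3B encodes a member of the MOB family, small proteins that bind kinases of the Hippo and related pathways.

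CUT&RUN, which uses a nuclease held by an antibody to cut out the DNA at the antibody's target, was performed on K562 cells, an erythroleukaemia line, and HepG2 cells, a hepatocellular carcinoma line. K562 γH2AX was profiled after 6 Gy from a 60Co source with 1 h (n = 2) or 24 h (n = 2) of recovery, against H2AX in untreated K562 cells (n = 2). HepG2 γH2AX was profiled 1 h after the same dose (n = 1), against H2AX in untreated HepG2 cells (n = 2), and H3K27me3 was profiled in K562 cells 1 h after irradiation (n = 1). No γH2AX library of unirradiated cells was analysed here, so the antibody and the irradiation change together in every comparison of γH2AX with H2AX and cannot be told apart. Libraries are called H2AX here by their titles, although their antibody entry names histone H4. All cells grew in DMEM with serum, and the labels do not say that replicates were separate cultures, so p-values measure only how these libraries vary, and that variation may be technical.

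The deposited tracks gave a mean depth for each 1-kb bin, and levels are relative to the library's own average, so that 1 is the average of the genome. If the steps of thinly covered bins are read lengths, the libraries held between 22.3 and 83.1 reads in units of 1e6, with 1799 to 20207 reads over PCDH9 and 123 to 7382 over MOB3B. The steps were 60 bp in the K562 1 h γH2AX and H3K27me3 libraries and 41 bp in all others, so read length and group cannot be told apart in the K562 1 h comparison. K562 24 h replicate 1 stood apart, because it read 0 in every bin of the genome in which the mean depth of both 1 h tracks exceeded 1.64. Those were 25.2% of the bins of PCDH9 and 58.5% of the bins of MOB3B, against 33.1% of all bins. Its values are given, but the 24 h results below rest on replicate 2.

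The starts of the genes are shown because the marks differed there, as described below. The 250 bases before each start, from RefSeq on GRCh38.p14 and written in the direction of transcription, lie on the minus strand at chr13:67230337-67230586 for PCDH9 and at chr9:27529815-27530064 for MOB3B. These coordinates belong to another build than the tracks and were not converted. Each CG, the dinucleotide that is methylated in human DNA, is in capitals.
PCDH9: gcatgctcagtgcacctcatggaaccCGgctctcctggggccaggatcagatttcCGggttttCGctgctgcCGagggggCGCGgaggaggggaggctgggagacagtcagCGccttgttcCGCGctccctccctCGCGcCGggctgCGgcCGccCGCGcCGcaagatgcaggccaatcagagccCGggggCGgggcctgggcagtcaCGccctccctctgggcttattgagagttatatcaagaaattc
MOB3B: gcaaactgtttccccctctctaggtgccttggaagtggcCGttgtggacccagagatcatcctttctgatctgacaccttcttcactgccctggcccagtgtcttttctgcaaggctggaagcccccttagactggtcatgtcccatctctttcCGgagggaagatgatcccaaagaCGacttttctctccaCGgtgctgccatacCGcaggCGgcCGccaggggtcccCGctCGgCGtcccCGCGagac
The PCDH9 sequence held 20 CG and the MOB3B sequence 12, against a median of 11 over 35116 promoters of the same length. CG was searched on the printed strand, which for this palindrome covers both, and 93.9% of those promoters held at least 1. The shares of G and C were 66.8% for PCDH9 and 59.2% for MOB3B.

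At both genes untreated H2AX was low in K562, and γH2AX at 1 h was near the average of its library. Over the body of PCDH9 the relative level was 0.887 and 0.739 in the K562 1 h γH2AX replicates, against 0.431 and 0.482 in the K562 H2AX replicates. Both 1 h values were above both H2AX values, with a log2 ratio of the means of 0.83 and a range of 0.62 to 1.04 over the 4 pairs of libraries. Over the body of MOB3B the level was 1.06 and 1.21 in the K562 1 h γH2AX replicates, against 0.473 and 0.464 in the K562 H2AX replicates. The groups did not overlap there either, and the log2 ratio was 1.28 with a range of 1.17 to 1.39 over pairs. How many of all windows also lacked overlap was not counted. In the fit of all windows 33.3% were called higher at 1 h, 37.7% lower and 71.1% in either direction. Nothing is read from these shares, because this comparison chose the genes.

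The rank of each gene among the windows of its library places each side of the ratio against the whole genome, not against the surrounding region. The PCDH9 level was higher than 57.4% and 45.6% of windows in the K562 1 h γH2AX replicates, against 3.65% and 4.42% in the K562 H2AX replicates. The MOB3B level was higher than 67.9% and 73.6% of windows at 1 h, against 6.67% and 3.28% in K562 H2AX. PCDH9 was thus near the middle of the γH2AX libraries and MOB3B above it, and both genes were near the bottom of the H2AX libraries. In K562 24 h replicate 2 the level was higher than 10.5% of windows at PCDH9 and 1.77% at MOB3B. HepG2 PCDH9 was higher than 82.0% of windows in γH2AX, against 69.9% and 76.0% in H2AX, and HepG2 MOB3B was higher than 38.3% in γH2AX, against 49.5% and 40.4% in H2AX. Divided by the mean of the same chromosome instead, the average rank of PCDH9 was 68.2% in K562 1 h γH2AX and 10.5% in K562 H2AX.

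**Figure D1:**
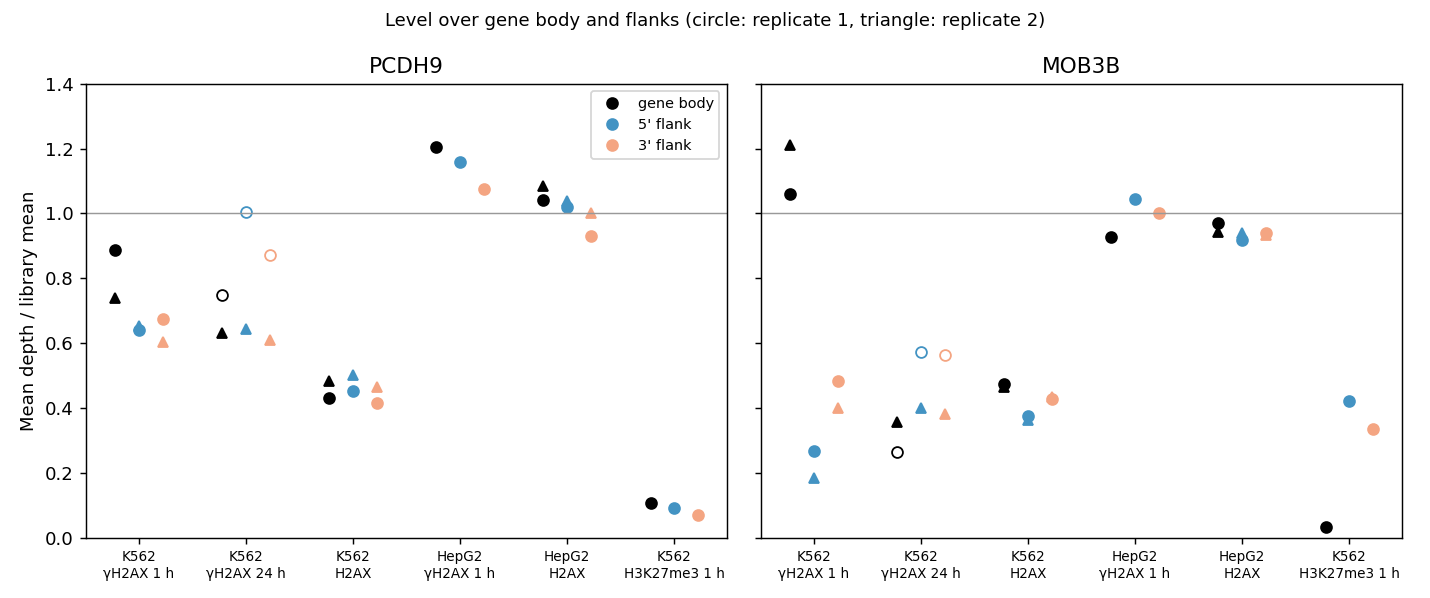
Relative level (depth divided by the library mean, vertical axis) over the gene body and the 500-kb flanks of PCDH9 (left) and MOB3B (right) in each library, with circles for replicate 1 and triangles for replicate 2. Open symbols mark K562 24 h replicate 1, which read 0 where the 1 h tracks were high. The MOB3B body stands above both flanks at 1 h in K562 and in no other group by as much, whereas K562 H2AX lies between 0.364 and 0.502 over bodies and flanks alike.

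In HepG2 the same regions carried average H2AX. For PCDH9, H2AX was 0.431 and 0.482 in K562, against 1.04 and 1.08 in HepG2. For MOB3B it was 0.473 and 0.464 in K562, against 0.969 and 0.942 in HepG2. Neither gene had overlapping values between the lines, and the share of all windows without overlap was not counted. The PCDH9 windows had log2 differences of -1.22 to -0.88 in the fit, with a median of -1.13, and the 3 MOB3B windows had -1.11 to -0.95. The median over all windows was -0.05, with 29.7% of windows called lower in K562, 24.5% called higher and 54.3% in either direction. Low K562 H2AX favoured the choice of these windows, so no test is given for them and nothing is read from these shares.

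Low H2AX was not limited to the gene bodies. The windows around PCDH9 whose H2AX in K562 was under 0.65 of that in HepG2 ran without a break over 12.2 Mb, from 61100001 to 73300000 on chromosome 13. Their median K562 H2AX level was 0.467 over 122 windows. Around MOB3B such windows ran over 11.6 Mb, from 20700001 to 32300000 on chromosome 9. There 89 of 116 windows had a K562 H2AX level below 0.25, none of them above 0.163, and the other 27 had a median of 0.382. No library of input DNA was analysed here, so fewer copies of the DNA and less H2AX per copy cannot be told apart. In the GRCh38.p14 RefSeq order the genes near PCDH9 include PCDH20, a further delta-type protocadherin, on one side and KLHL1 on the other. MOB3B is listed there after EQTN and before IFNK, and an order without coordinates does not show whether these genes overlap.

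Within these low segments the 1 h level differed between the genes and along PCDH9. The PCDH9 windows that start at 67400001, 67500001 and 67600001 ranked 3, 2 and 1 of 122 for the mean 1 h level, and 77, 81 and 66 for K562 H2AX. The other PCDH9 windows ranked 8, 9, 11, 14 and 16 for that mean within the gene, and 112, 118 and 120 towards its ends. The replicates differed for several of these. Windows from 67200001, 67300001 and 67000001 ranked 7, 14 and 12 in replicate 1, against 52, 37 and 83 in replicate 2. Those from 67100001 and 67700001 ranked 9 and 11, against 7 and 20. Towards the ends, windows from 67800001, 66900001 and 66800001 ranked 47, 37 and 87, against 117, 120 and 122. The median 1 h level of the segment was 0.611, and its median log2 ratio to H2AX was 0.38. The MOB3B windows that start at 27300001, 27400001 and 27500001 ranked 2, 1 and 3 for the 1 h level and 2, 5 and 7 for H2AX among the 27 windows that were kept. The median 1 h level of those 27 was 0.212, and their median log2 ratio to H2AX was -0.34. The other 89 windows of that segment were not ranked, and the 1 h ranks are a description because the 1 h level helped to choose the genes.

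Setting each body against its own flanks compares regions within one library and does not depend on the scaling. For MOB3B this ratio was 2.83 and 4.15 in the K562 1 h γH2AX replicates, against 1.18 and 1.16 in K562 H2AX. For PCDH9 it was 1.35 and 1.18 in the K562 1 h γH2AX replicates, against 0.992 and 0.998 in K562 H2AX. In both genes the 1 h replicates exceeded the H2AX replicates, by more for MOB3B than for PCDH9. The flanks themselves differed between the loci. Around PCDH9 the 1 h level was 0.673 and 0.603 in the 3′ flank and 0.640 and 0.654 in the 5′ flank, against 0.416 and 0.463 and then 0.453 and 0.502 in K562 H2AX. γH2AX was above H2AX on both sides of PCDH9, with log2 ratios of 0.54 on the 3′ side and 0.44 on the 5′ side. Around MOB3B the 1 h level was 0.483 and 0.399 in the 3′ flank and 0.267 and 0.184 in the 5′ flank, against 0.429 and 0.434 and then 0.375 and 0.364 in K562 H2AX. The log2 ratio was 0.03 on the 3′ side of MOB3B, where the groups overlapped, and -0.71 on the 5′ side, where both 1 h values were below both H2AX values.

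The profile over 10-kb steps placed the MOB3B signal in a block. Both 1 h replicates exceeded 0.5 of the library mean in every step from 40 kb before the start to 200 kb after it, a stretch of 240 kb against a gene length of 204.644 kb. Inside the block replicate 1 ran from 0.678 to 1.43 and replicate 2 from 0.592 to 1.76. In the step just before it they were at 0.383 and 0.387, and in the step just after it at 0.329 and 0.594, so replicate 2 stayed above the threshold there. All 20 steps of the gene body were above the threshold in both replicates, against 22 of 101 flank steps. Of those flank steps, 10 formed a run from 530 to 630 kb after the start, with means of 0.722 and 0.671 in the replicates. At a threshold of 0.6 the longest run in MOB3B was 130 kb. K562 H2AX also varied along the gene, from 0.367 to 0.613 over 5 equal parts of the body in replicate 1 and from 0.438 to 0.515 in replicate 2. Across 121 steps of body and flanks its Spearman's rho with 1 h γH2AX was 0.49, against -0.01 across 191 steps at PCDH9.

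**Figure D2:**
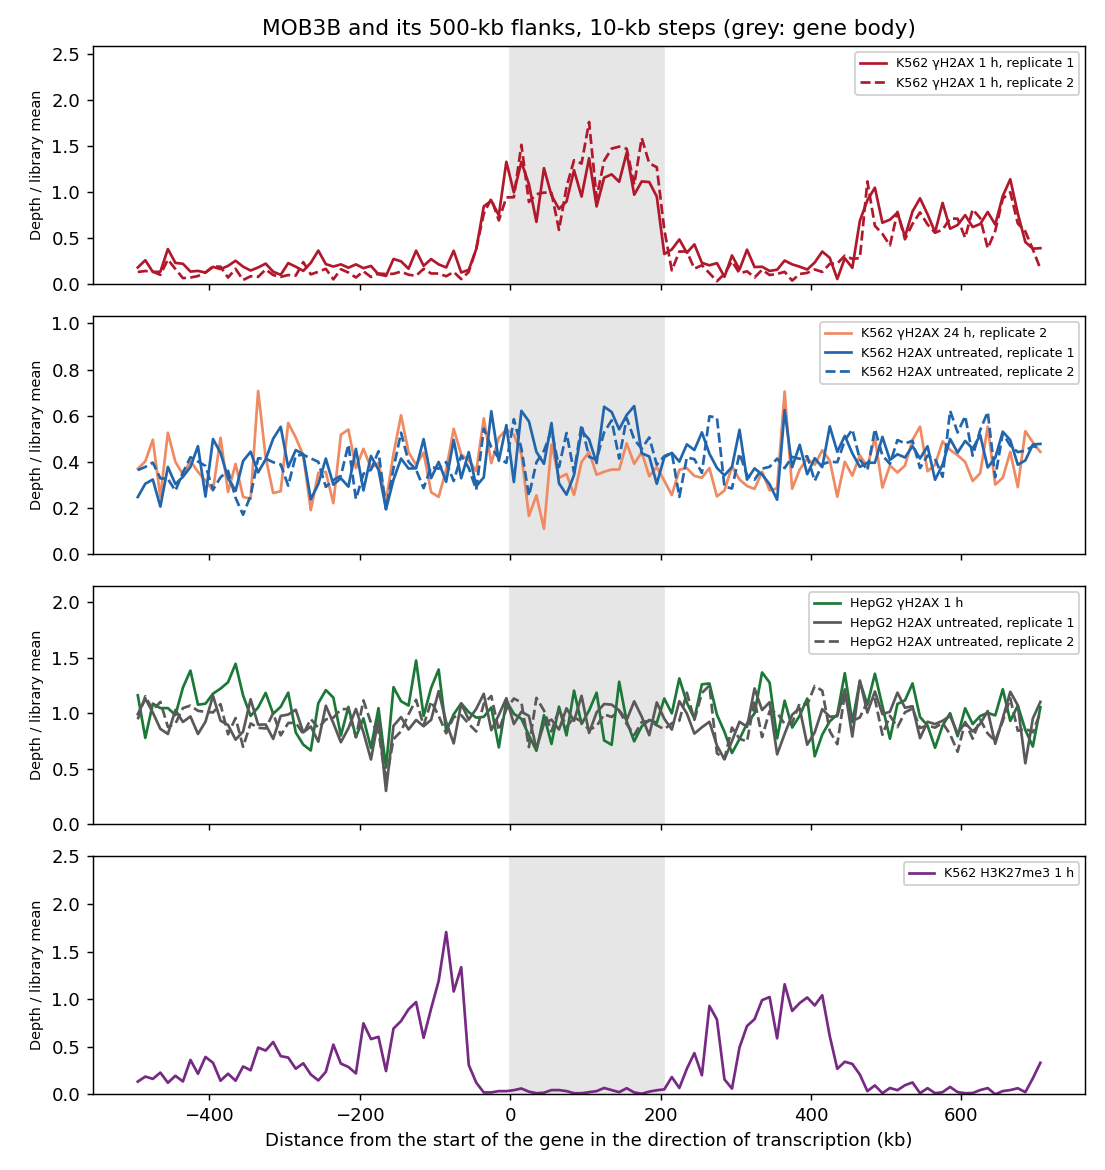
Relative level in 10-kb steps (vertical axes) against the distance from the start of MOB3B in the direction of transcription (horizontal axis, kb), with the gene body in grey. From top to bottom: K562 γH2AX at 1 h, K562 γH2AX at 24 h replicate 2 with K562 H2AX, HepG2 γH2AX at 1 h with HepG2 H2AX, and K562 H3K27me3 at 1 h. Both 1 h replicates exceed 0.5 from -40 to 200 kb, and H3K27me3 stays at or below 0.0657 over that stretch.

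Along PCDH9 the 1 h level was uneven. From the start to the end of the gene, 5 equal parts of the body had 0.960, 1.12, 0.869, 0.838 and 0.651 in replicate 1. In replicate 2 they had 0.904, 0.883, 0.691, 0.735 and 0.481. In both replicates the last of these 5 was the lowest, while K562 H2AX varied only from 0.413 to 0.459 in replicate 1 and from 0.467 to 0.506 in replicate 2. The log2 difference from H2AX in the fit was highest in the window from 67600001, at 1.22 (SE 0.12), and lowest in the windows at the ends of the gene, at 0.12 (SE 0.14) from 67800001 and 0.14 (SE 0.13) from 66800001. The 11 windows had a median of 0.57 and the 3 MOB3B windows one of 1.01, beside a median of 0.06 over all windows. The mean 1 h level was 0.540 in the window from 67800001, which holds the start, and 0.744 in the next window into the gene. Just outside the gene, the nearest flank windows had log2 ratios of 0.47 on the 5′ side and 0.70 on the 3′ side, and the highest flank window had 0.93.

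**Figure D3:**
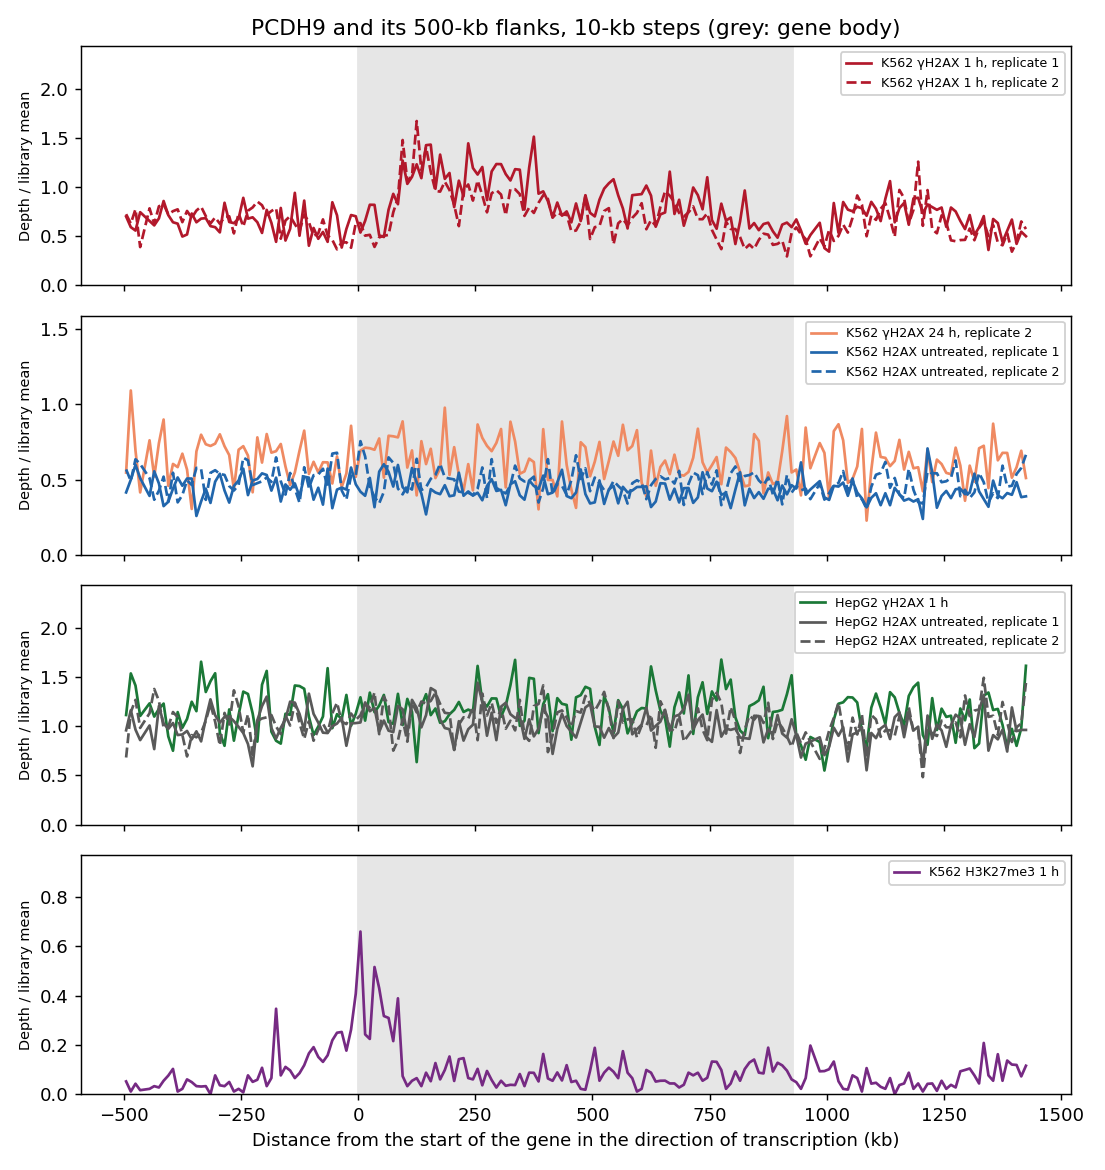
Relative level in 10-kb steps (vertical axes) against the distance from the start of PCDH9 in the direction of transcription (horizontal axis, kb), with the gene body in grey and the same libraries in the same order as for MOB3B. The highest 1 h steps lie at 375 kb in replicate 1 and 125 kb in replicate 2, and H3K27me3 is highest in the first step after the start, at 0.660.

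H3K27me3 followed a different course at each start. Within 5 kb of the MOB3B start its level was 0.0199, with 1 h γH2AX at 0.971 and 0.893. Within 5 kb of the PCDH9 start it was 0.737, with 1 h γH2AX at 0.530 and 0.507. Over the bodies H3K27me3 was 0.107 for PCDH9 and 0.0329 for MOB3B, higher than 31.4% and 4.91% of windows in its library. Over the MOB3B flanks it was 0.334 on the 3′ side and 0.423 on the 5′ side. Its highest step near MOB3B, at 1.71, was centred 85 kb before the start.

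Across the 121 steps of MOB3B and its flanks, γH2AX at 1 h and H3K27me3 ran in opposite directions, with a Spearman's rho of -0.77. Of the 73 steps with H3K27me3 above 0.1 of its library mean, 1 had both 1 h replicates above 0.5, against 41 of the 48 steps at or below 0.1. The limit of 0.1 was not varied. It lies below the median 100-kb window of that library, 0.366, so steps above it are not all rich in H3K27me3. The median 1 h level was 0.201 and 0.130 in the steps with more H3K27me3, against 0.893 and 0.855 in the others. K562 H2AX differed much less between these sets of steps, at 0.378 and 0.383 in the steps with more H3K27me3, against 0.428 and 0.448. Across the 191 steps of PCDH9 and its flanks the rho was -0.30, and 27 of 54 steps above 0.1 had both replicates above 0.5, against 115 of 137. Neighbouring steps share library, copy number and chromatin, and the 1 h and H3K27me3 libraries also share their read length, so these are descriptions. For scale, the 1 h replicates had a rho of 0.86 with each other near MOB3B and 0.57 near PCDH9.

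**Figure D4:**
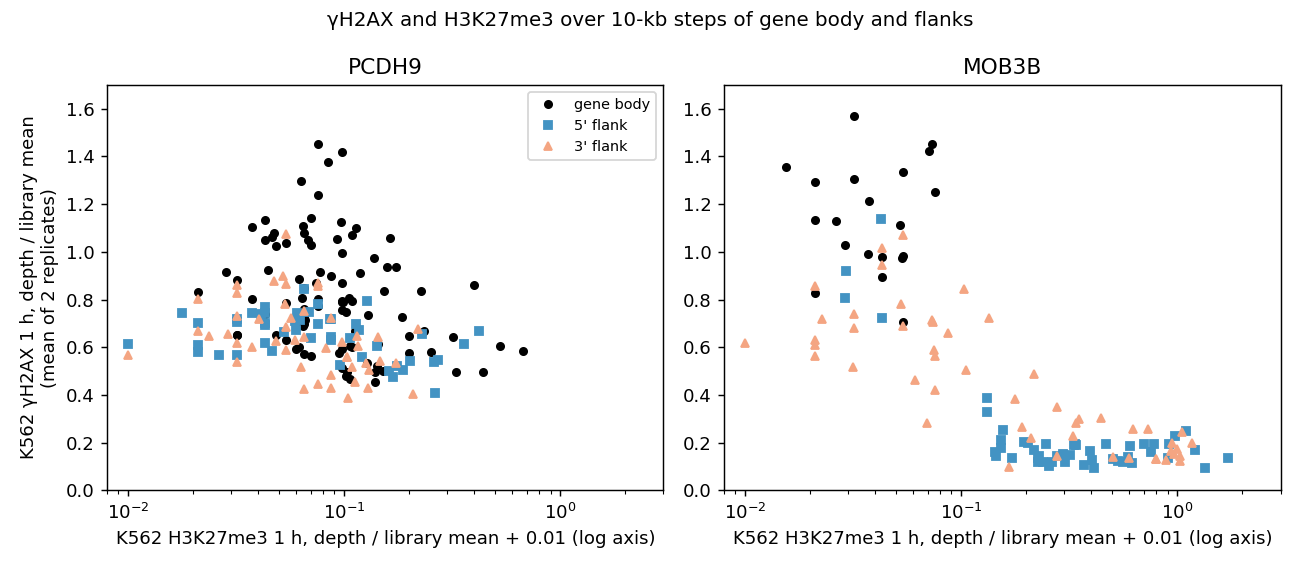
Mean relative level of the K562 1 h γH2AX replicates (vertical axis) against that of K562 H3K27me3 plus 0.01 (horizontal axis, log scale) over 10-kb steps of PCDH9 (left) and MOB3B (right), with symbols for gene body and flanks. Near MOB3B the gene body steps lie at low H3K27me3 and high γH2AX and the 5′ flank steps mostly at the opposite corner, and near PCDH9 the parts overlap.

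At 24 h the block over MOB3B was not seen in replicate 2. The MOB3B level was 0.264 and 0.356 in the 24 h replicates, against 0.473 and 0.464 in K562 H2AX. Replicate 2 was 0.912 of its flanks at 24 h, and its log2 ratio to H2AX was -0.39. For PCDH9 the level was 0.750 and 0.631 in the 24 h replicates, against 0.431 and 0.482 in K562 H2AX. The ratio of replicate 2 to its flanks was 1.01, and its log2 ratio to H2AX was 0.47 over the body, 0.47 over the 3′ flank and 0.43 over the 5′ flank, so the ratio to H2AX was about as large beside PCDH9 as in it. Replicate 1 had 26.1% of PCDH9 bins and 62.0% of MOB3B bins at 0, against 2.07% and 7.32% in replicate 2.

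In the fit, 24 h replicate 2 differed from K562 H2AX by log2 0.22 to 0.62 over the 11 PCDH9 windows, with a median of 0.44. Over the 3 MOB3B windows the differences were -0.38 to 0.00, with a median of -0.30. The median over all windows was 0.05, and limma called 0 of 27610 windows (0% of those tested), with 8026 at an unadjusted p under 0.05. The K562 H2AX libraries that helped to choose the genes enter these differences, and the 24 h side is 1 library. No test of the genes is therefore given, here or under other settings.

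The HepG2 levels did not enter the difference that chose the genes. The HepG2 libraries were, however, part of the earlier fit whose calls limited that choice. The PCDH9 level was 1.20 in HepG2 γH2AX, against 1.04 and 1.08 in HepG2 H2AX. The MOB3B level was 0.928 in HepG2 γH2AX, against 0.969 and 0.942 in HepG2 H2AX. The log2 ratios of the single γH2AX library to H2AX were 0.18 at PCDH9 and -0.04 at MOB3B. The latter was smaller than the median SE of the MOB3B windows in the fit, 0.13. The flanks of PCDH9 gave ratios similar to its body, at 0.15 and 0.17. Beside MOB3B the ratios were 0.10 and 0.17. Against its flanks the PCDH9 body was 1.08 in HepG2 γH2AX, against 1.07 and 1.06 in HepG2 H2AX, and the MOB3B body was 0.906, against 1.04 and 1.01.

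Limma called 0 of 27610 windows (0% of those tested) between HepG2 γH2AX and HepG2 H2AX, with 1660 at an unadjusted p under 0.05. None of the 11 PCDH9 and 3 MOB3B windows had an unadjusted p under 0.05. PCDH9 windows had log2 differences of -0.07 to 0.35 with a median of 0.17 (median SE 0.16), and 10 of 11 were positive, with a lowest limma adjusted p of 0.795. MOB3B windows had -0.04 to 0.05 with a median SE of 0.13 and a lowest limma adjusted p of 0.965. With K562 1 h replicate 1 left out, and likewise with replicate 2 left out, 1 of 11 PCDH9 windows was called, beside 20.1% and 20.4% of all windows, and no MOB3B window. The γH2AX side is 1 library whose spread is taken from the other groups, so the calls depend on which groups are fitted. With only the HepG2 groups in the fit, 5 of 11 PCDH9 windows were called, beside 30.8% of all windows.

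**Figure D5:**
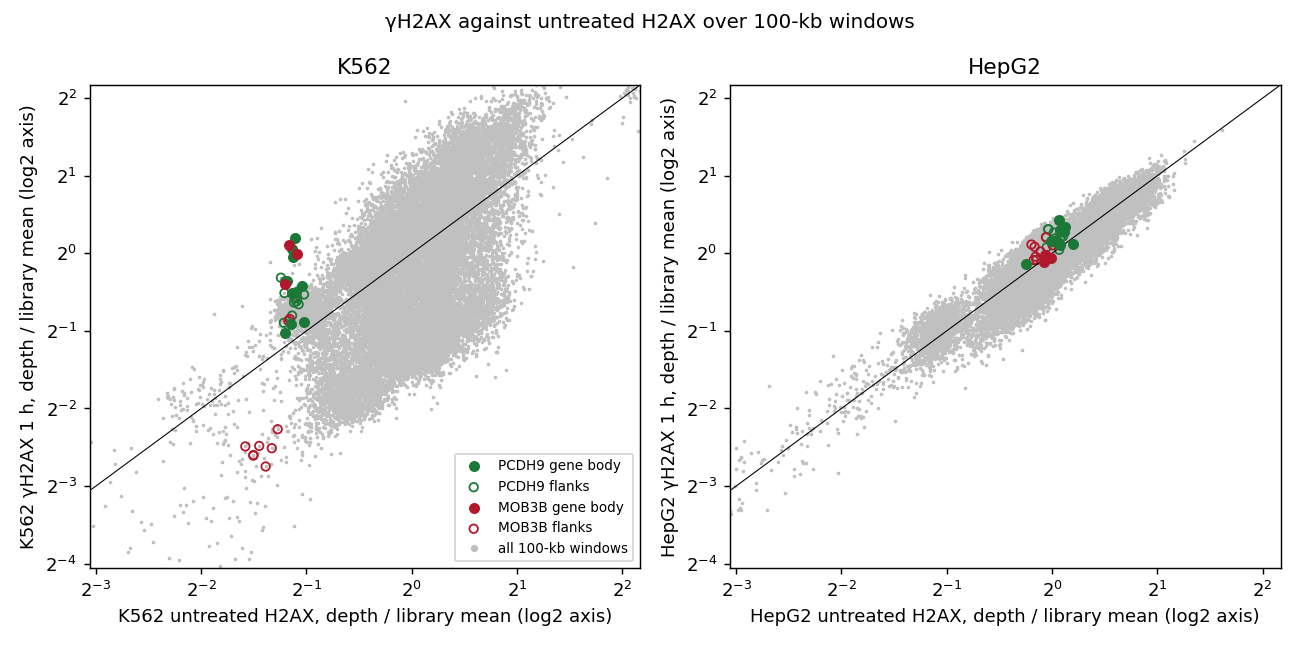
γH2AX at 1 h (vertical axis) against untreated H2AX (horizontal axis), both as depth divided by the library mean on log2 axes, for 100-kb windows in K562 (left) and HepG2 (right); the line marks equal levels. In K562 the windows of PCDH9 and MOB3B lie at low H2AX and above the line, with most MOB3B flank windows below it, and in HepG2 they lie near 1 on both axes.

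Of the deposited peaks, 3 lay in the genes, and none of them passed a q-value of 0.05, which 8.10% and 14.7% of all peaks passed in the K562 1 h lists of replicates 1 and 2. In the K562 1 h replicate 1 list, PCDH9 held 1 peak, on chromosome 13 from 67435269 to 67435567, with an authors' fold of 1.98 and a q of 0.150. MOB3B held 1 peak in each replicate. That of replicate 1 ran from 27487505 to 27487879 with a fold of 1.31 and a q of 0.371, and that of replicate 2 from 27412409 to 27412868 with a fold of 1.13 and a q of 0.408. The MOB3B peaks of the replicates did not coincide, and both folds were below the medians of their lists, 1.78 and 1.76. PCDH9 had 1.08 and 0 peaks per Mb and MOB3B 4.89 in each replicate, against 14.9 and 16.3 per Mb over the genome. The flanks held no peak of either 1 h list at either gene. The genes held none in the K562 24 h lists of 8 and 13 peaks or the HepG2 list of 170 peaks, which amount to at most 0.0603 peaks per Mb over the genome.

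The windows elsewhere in the genome most like each gene, by distance over the 9 libraries on the log2 scale, lay on other chromosomes. For PCDH9 the nearest was on chromosome 3 from 84300001, at a distance of 0.25 beside a median of 3.03 over 27576 windows. It had 0.783 and 0.653 in the K562 1 h γH2AX replicates, against 0.483 and 0.493 in K562 H2AX. For MOB3B the nearest was on chromosome 3 from 87900001, at a distance of 0.747 beside a median of 3.30. It had 0.905 and 0.913 at 1 h, against 0.519 and 0.537 in K562 H2AX, and 0.0346 for H3K27me3. Of the 5 nearest windows for each gene, 4 lay on chromosome 3 for PCDH9, and for MOB3B 2 lay on chromosome 5 and 2 on chromosome 10.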

How the data were processed

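Per the submitters' processing notes the genome build was hg19, and the tools named there, without roles, are BWA 0.7.12, MACS2 and SAMtools. The deposited tracks hold signal as mean depth (coverage) per base in 1-kb bins, not scaled to library size. The 5 deposited γH2AX peak lists give a fold enrichment (a ratio) and the −log10 of p and q as the authors' peak caller wrote them, per library; what they took as control for it is not stated in the labels.

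Each bin was divided by its library mean, without chromosome Y, and bins were averaged into 100-kb windows with at least 50% of their bins. Windows with H2AX of at least 0.25 in both lines were tested on log2(level + 0.05), so log2 differences understate changes near 0. limma 3.58.1 in R 4.3.3 fitted 9 libraries in 6 groups with a mean-variance trend, without K562 24 h replicate 1, and p-values were Benjamini-Hochberg adjusted over 27610 windows. Groups of 1 library (K562 24 h, HepG2 γH2AX, H3K27me3) were assumed to vary like the replicated ones, which left 3 residual degrees of freedom. The script was tested on simulated data. At the genes, differences that involve K562 1 h γH2AX or K562 H2AX are given without p-values, although a test had been planned for some. Peaks were assigned by their centre. Windows most like a gene are the 5 nearest by Euclidean distance outside both loci. Alternatives were other libraries, scalings, pseudocounts, filters, window sizes, flanks, groups in the fit, a replicate block and leaving out each replicate. The genes, lists, windows to be named and tests were chosen with earlier results of these data known. Lists of related protocadherin and MOB pathway genes were not run, for lack of a gene annotation of this build. No reads or counts per molecule were used, so counting intervals are not given. Figures used matplotlib 3.10.9, and tables used pandas 2.3.3 and numpy 2.4.6 in Python 3.11.15.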

Additional observations from a re-analysis of the deposited data

Results flagged for a closer look

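At MOB3B the libraries of K562 at 1 h moved one way from their H2AX and those of another γH2AX group moved the other way, in every pair of libraries. In log2 units, the K562 1 h ratio to H2AX over the gene body exceeded that of HepG2 by 1.32 and that of K562 24 h replicate 2 by 1.67. For the gene body over its flanks the differences were 1.76 from HepG2 and 1.94 from K562 24 h replicate 2. These differences were not tested. The HepG2 ratio over the MOB3B body was itself -0.04, smaller than the median SE of its windows, 0.13. The K562 1 h ratio is what chose the gene, the 24 h comparison shares the K562 H2AX libraries with it, and HepG2 and 24 h each give 1 γH2AX library, so opposite directions here are a description. PCDH9 met no such condition, since its ratios were positive in all 3 comparisons.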

How the results depend on the processing

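Under other settings 132 recomputed values stayed within the limits set out below, 25 moved, 3 passed the threshold and 3 lost it. With 1 library left out, 76 stayed within those limits, 2 moved and 6 passed the threshold. No called value changed sign. A level over flanks or a rank counts here as moved when it shifts by more than the SD pooled over the 3 groups with 2 libraries. For a median log2 difference the spread came from the compared groups with 2 libraries. In the 24 h and HepG2 comparisons that was the H2AX group alone. Shares of windows called, counts and run lengths were judged by their fold change. A share could thus stay within the limits although some windows lost their call. Calls in the 24 h comparison, given only here, are partly fixed by the choice of genes, because K562 H2AX helped to choose them. In each fit that called gene windows in that comparison, most windows of the genome were called too. Nothing is therefore read from the 24 h shares of the genes. With only the groups compared in the fit, that comparison called 72.7% of PCDH9 and 66.7% of MOB3B windows (15244 of all windows, against 0), and HepG2 called 45.5% of PCDH9 windows (8496 of all, against 0). Leaving out 1 library at a time, the 24 h shares ran from 0 to 81.8% at PCDH9 and 0 to 66.7% at MOB3B, and the HepG2 share at PCDH9 from 0 to 9.09%. The median log2 difference of K562 1 h from H2AX ran from 0.48 to 0.74 at PCDH9 and from 0.89 to 1.13 at MOB3B, where a pseudocount of 0.2 gave 0.83. With all 10 libraries the count of windows differing in H2AX between K562 and HepG2 was 2454 (8.89%), against 14979, and leaving out 1 library gave 7704 to 21899. Divided by the chromosome mean, the average rank was 68.2% in K562 1 h, 10.5% in K562 H2AX and 39.4% in H3K27me3 at PCDH9, and 78.5% in K562 1 h, 55.1% in HepG2 γH2AX and 64.3% in HepG2 H2AX at MOB3B. The body over its flanks at 1 h was 5.47 at MOB3B with medians over bins and 4.76 with 250-kb flanks, and H3K27me3 at PCDH9 was 1.03 with 250-kb flanks. With q under 0.05 each of the 3 peaks was lost, leaving 0. Chosen after seeing the data, a threshold of 0.6 gave a MOB3B run of 130 kb. The PCDH9 run through the middle step of the gene was 430 kb at 0.5, 730 kb at 0.4 and 30 kb at 0.6. That step, at 465 kb, was itself below 0.6 in replicate 2, at 0.557. Away from it, both replicates exceeded 0.6 in every step from 75 to 445 kb, where replicate 2 was lowest at 0.602. The length thus depended on the threshold and on the step from which it was grown, and PCDH9 is given no block. The replicate numbers were not shown to pair the libraries (correlations of deviations 0.18, 0.03 and 0.30). With the replicate block the HepG2 median log2 difference at MOB3B was 0.01, against -0.03 without it. The cause of these changes was not tested, beyond fewer libraries or peaks by construction. Thin depth limits H3K27me3 at MOB3B, where about 123 reads lay over the gene.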
